A study of Mus musculus with 24 samples.

Results

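Kinesins are the motor proteins that move along microtubules, and their mRNAs were followed here from the mouse oocyte to the late 2-cell embryo. Members were all protein-coding genes whose symbol is Kif with a number, or Kifc with a number, which gave 42 of 55471 annotated genes and of 21974 protein-coding genes. They were sorted by textbook role into 15 spindle and cytokinesis kinesins, 15 transport kinesins and 12 ciliary and other kinesins. The symbol rule uses no measured value.

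The study used the B6D2F1 mouse cross. Oocytes arrested at MII came from superovulated females, with their cumulus cells removed. The embryos, from matings to B6D2F1 males and then culture, were taken late in the 1-cell stage (L1C) and late in the 2-cell stage (L2C). In SLIM-seq, a low-input capture of RNA with an antibody to N6-methyladenosine (m6A), each stage gave 3 captured libraries (IP) and 3 libraries of the same batches without capture (input), 18 in all. In a second experiment, 3 libraries of L2C embryos injected as zygotes with Cas13d mRNA and 3 crRNAs against Ythdc1 (Ythdc1 KD) were compared with 3 libraries of L2C embryos labelled NC (Ctrl), which had Cas13d mRNA alone and no crRNA. Cas13d cuts RNA, so the knockdown acts on the transcript, and both groups carry Cas13d. Ythdc1 is the nuclear reader of m6A. The labels name no altered allele in any group, and each library was made from many oocytes or embryos together. The labels do not say whether replicates were separate collections, so p-values measure the spread between these libraries.

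Spindle kinesins build the bipolar spindle, move or hold chromosomes, trim microtubule ends and assemble the midzone on which cytokinesis depends, and their mRNA in somatic cells usually peaks late in the cell cycle. Transport kinesins carry vesicles, organelles and RNA along interphase microtubules. The oocyte is loaded with maternal mRNA before it arrests at metaphase of the second meiosis, much of that mRNA is degraded after fertilization, and the embryonic genome is switched on in the main by the 2-cell stage. m6A marks many mRNAs and can affect their decay, splicing and export.

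Of the 42 kinesins, 38 had enough counts to be tested in SLIM-seq. Kif12, Kif19a, Kif7 and Kif2b did not, having at most 4, 15, 21 and 4 counts in any library. Total counts ran from 11107421 to 39739950 per SLIM-seq library. The knockdown table ends on chromosome 7, with 3276715 to 5463868 counts per library and 16 of the 42 kinesins. For the other 26, whole libraries of 8696476 to 14500548 counts were used, which leaves 2 KD and 3 Ctrl libraries, since the file of KD replicate 3 ends at the same gene. Stage markers followed the labels in the inputs: summed CPM (counts as a share of the scaled library total) of 8 oocyte markers fell from 17800 to 18970 at MII to 706 to 736 at L2C, and those of 6 2-cell markers rose from 6.29 to 7.41 to 365 to 494. Summed CPM of 8 cumulus cell markers were 38.8 to 47.3 at MII, 29.98 to 35.02 at L1C and 6.28 to 6.81 at L2C, with Ptx3 at 0 in all 9 inputs and Cyp19a1 alone making 31.8 to 39 CPM at MII, while Star went from 1.52 to 1.98 at MII to 2.74 to 4 at L2C. Those of 5 sperm markers were 2.48 to 3.02, 2.59 to 2.74 and 55.6 to 73.7, of which Prm1 alone, at 0 in every MII and L1C input, made 54.9 to 72.4 at L2C, while Prm2 went from 2.2 to 2.89 at MII to 0.582 to 1.01 at L2C. The part of these 2 lists in the results below was not tested. All values are relative within a library of many cells, so fewer cells of a type and less RNA per cell cannot be told apart.

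Spindle kinesins were the more abundant class in oocytes and embryos. On the scale of deposited TPM, which divides by the length of the whole gene with its introns, the median spindle kinesin stood at 14.9, 12.0 and 14.7 at MII, L1C and L2C, against 0.879, 1.07 and 1.67 for transport kinesins. The median of all protein-coding genes was 0.386, 0.472 and 0.506. At least 1 TPM was reached by 11, 12 and 13 of the 15 spindle kinesins, by 7, 8 and 9 of the 15 transport kinesins, and by 3, 1 and 4 of the 12 ciliary and other kinesins. Summed over the class, spindle kinesins made 760.4 to 812 TPM per library at MII, 449.6 to 536 at L1C and 646 to 699 at L2C. Transport kinesins made 122 to 126, 82.5 to 102 and 68.7 to 72.2 TPM. The spindle sum was thus lowest at L1C and the transport sum lowest at L2C, with no overlap of libraries between stages in either class.

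At MII the order of levels began with Kif20a, which brings the chromosomal passenger complex to the midzone, at 344 ± 28.4 TPM (mean ± SD, n = 3). Kif23, the motor subunit of centralspindlin, followed at 269 ± 6.31 TPM. Both cytokinesis motors stood well apart from the rest, since the next genes, the chromokinesin Kif22 and the kinesin-II subunit Kif3a, had 40.5 ± 3.14 and 40 ± 0.963 TPM and overlapped each other. Kif17 (35.8 ± 0.372 TPM), Kif2c (29.2 ± 3.57 TPM) and Kif20b (23.5 ± 2.05 TPM) came next, and Kif20b and Kif14 (22.3 ± 0.59 TPM) did not differ beyond their spread. By L2C the order had changed below Kif20a (339 ± 23.6 TPM): Kif22 had rank 2 at 139 ± 9.05 TPM, the microtubule depolymerase Kif2c rank 3 at 52.3 ± 6.24 TPM and Kif18b rank 4 at 36.6 ± 2.32 TPM. Kif23 had moved from rank 2 to rank 5 at 24.6 ± 2.09 TPM, and none of these 5 overlapped its neighbour. Kif3c (20 ± 1.46 TPM) and Kifc2 (19.3 ± 0.876 TPM), both below 1 TPM at MII, were the first transport kinesins in the L2C order and overlapped each other.

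These ranks rest on how reads were counted. Per kilobase of merged exons, Kif23 came before Kif20a at MII (132 against 84.5 CPM per kilobase), and the gap of class medians was smaller than on TPM. In the Ctrl libraries of the knockdown experiment, also L2C but counted on exons alone, the first places went to Kif20b, Kif2a, Kif23 and Kif2c with 86.4, 58.6, 34.0 and 33.2 CPM per kilobase of exons, and Kif20a had rank 10 with 10.7. Kif2a, a depolymerase of spindle poles, had 18.9 to 27.5 CPM in L2C inputs and 334 to 398 CPM in Ctrl libraries, while Kif20a had 535 to 655 and 45.5 to 47.5 CPM. The tables were made separately from different libraries and by different counting, so levels of a gene are compared below only within a table. Neighbours on the genome can also add reads to whole-gene counts: Cdc23 covered 26.9% of the Kif20a gene on the opposite strand, Gm31749 25.9% of Kif22, and the antisense transcript Gm48512 89.0% of Kif3c. The antisense Gm31224 covered 15.6% of Kifc3 with a mean count of 1801 over the 18 libraries against 1520 for Kifc3, and AC144621.3, on the opposite strand, covered all of Kifc5b with 185 against 137. Kifc1 and Kifc5b share 98.4% of their aligned coding bases, so reads may be split between them.

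**Figure D1:**
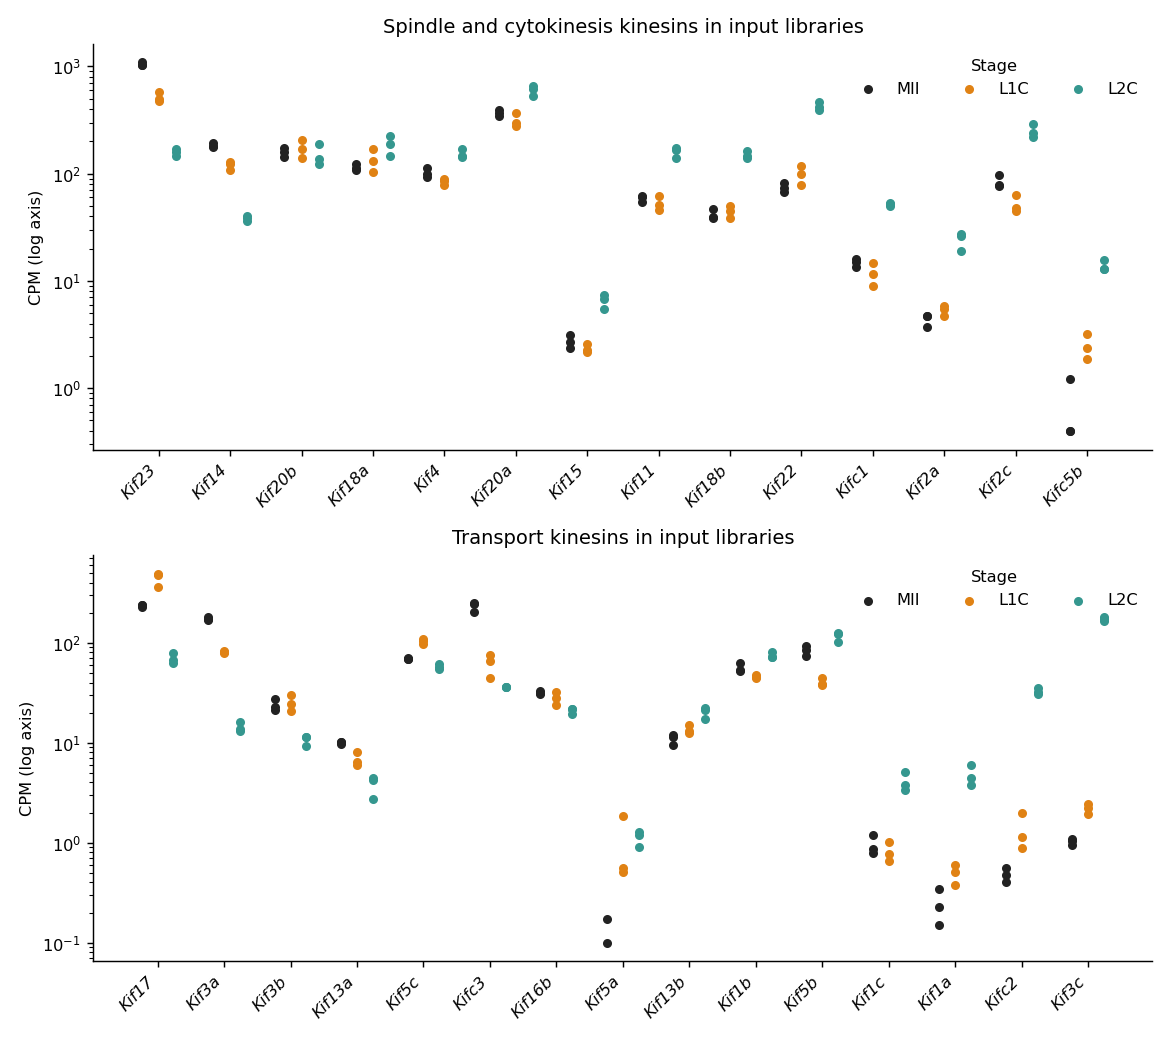
CPM of spindle and cytokinesis kinesins (top) and transport kinesins (bottom) in each of the 9 input libraries, on a log axis, with genes ordered from left to right by their change from L1C to L2C. Each dot is 1 library, coloured by stage; Kif23 goes from 1024 CPM or more at MII to at most 168 at L2C, and Kif3c from at most 1.08 to at least 166. The MII input replicate 3 of Kif5a, at 0, is not drawn.

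Between MII and L1C, the interval that holds fertilization, kinesins moved in both directions in equal number. The study's methods prime reverse transcription with oligo-dT. Changes of the poly(A) tail and of mRNA amount can therefore not be told apart, here and at the later step. Of 38 tested, 10 were higher and 10 lower at L1C (edgeR quasi-likelihood test, adjusted p under 0.05), beside 31.9% and 24.3% of all 19903 genes tested. The split depends on scale: with limma on log2(TPM + 1) it was 6 higher and 16 lower, and the median change of all genes went from 0.16 to -0.02 (log2). In the spindle class 2 rose and 3 fell of 14, with a median log2 change of -0.19. In the transport class 5 rose and 5 fell of 15, with a median of 0.07, and of 9 ciliary and other kinesins 3 rose (Kif27, 2.06 ± 0.22; Kif6, 1.66 ± 0.41; Kif9, 1.37 ± 0.29) and 2 fell (Kif26a, -2.19 ± 0.26, and Kif24, -0.46 ± 0.12), with a median of 0.46.

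Among spindle and transport kinesins, Kifc3, Kif3a, Kif23 and Kif5b are given per library because their falls had the smallest p; the fall of Kif26a above was larger than any of them. Kifc3, a minus-end-directed transport motor, had 204, 252 and 246 CPM at MII and 44.1, 76.3 and 65.7 at L1C (log2 change -1.92 ± 0.17, adjusted p = 6.14e-07; ± SE here and below). Kif3a had 173, 170.3 and 180.2 CPM against 82.5, 78.2 and 80.8 (-1.11 ± 0.12, adjusted p = 2.65e-06). Kif23 had 1024, 1026 and 1090 CPM against 576, 477 and 502 (-1.01 ± 0.11, adjusted p = 5.51e-06). The part of the antisense Gm31224 in the Kifc3 values, here and in the capture below, was not tested. In each of these genes every L1C library lay below every MII library. Kif5b, a conventional kinesin heavy chain, went from 73.4, 84.8 and 92 to 38.9, 44.5 and 38 CPM (-1.04 ± 0.13, adjusted p = 1.73e-05), again without overlap. Of the spindle class, Kif2c (-0.70 ± 0.16) and Kif14 (-0.60 ± 0.11), which binds citron kinase at the midbody, were lower as well.

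Some transport motors moved the other way. Kif17, a homodimeric motor known from dendrites and cilia, rose from 226, 237 and 236 to 359, 478 and 492 CPM (0.93 ± 0.14, adjusted p = 6.17e-05). Kif5c, another conventional heavy chain, rose from 69.5, 69.1 and 70.6 to 104, 96.7 and 109 CPM (0.56 ± 0.11, adjusted p = 0.000649). Neither gene's groups overlapped. Kif3c rose by a log2 change of 1.08 ± 0.19 from 1.08, 1.05 and 0.958 to 2.41, 1.95 and 2.21 CPM, and Kifc5b by 1.83 ± 0.37 from 1.21, 0.4 and 0.395 to 1.86, 3.2 and 2.37 CPM. The Kifc5b value ran from 1.56 to 2.62 over the 9 fits that left out a library, the highest without MII input replicate 1. Kif22 (0.40 ± 0.15, adjusted p = 0.0345) was the other spindle kinesin called higher, a call lost in 5 of the 9 fits that left out a library, with log2 changes from 0.24 to 0.54 over the 9. Kif11, Kif15, Kif18a, Kif18b, Kif20a, Kif20b, Kif2a, Kif4 and Kifc1 did not pass the test at this step.

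Between L1C and L2C, when the embryonic genome is activated, most spindle kinesins rose. Of 14 spindle kinesins tested 11 were higher and 2 lower at L2C, with a median log2 change of 1.53, whereas the transport class split evenly, 7 higher and 7 lower of 15, with a median of 0.24. Over all 38 kinesins 22 were higher and 13 lower, beside 44.1% and 38.8% of all genes, whose median change was 0.17; of the 9 ciliary and other kinesins 4 rose and 4 fell, with a median of 0.42. The spindle median stayed positive under each alternative scale, from 0.68 with limma on log2(TPM + 1) to 1.68 with DESeq2. The transport median did not keep its sign, at -0.02 on the TPM scale and between -0.11 and 0.66 when a library was left out, being -0.11 without L1C input replicate 1, -0.06 without replicate 2 and 0.66 without replicate 3.

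Among the spindle motors, Kif2c rose from 48.1, 44.9 and 62.8 CPM to 222, 292 and 239.8 (2.27 ± 0.16, adjusted p = 8.21e-09). Kif22 rose from 78.2, 98.9 and 117 to 390.3, 467 and 416 CPM (2.11 ± 0.15, adjusted p = 8.83e-09). In both, the lowest L2C library was more than 3 times the highest L1C library. Kifc5b had the largest rise of the class, a log2 change of 2.47, and had 12.77, 12.85 and 15.54 CPM at L2C. Its value ran from 2.27 to 2.69 when a library was left out. Kif2a rose by 2.19 ± 0.19, the minus-end-directed spindle motor Kifc1 by 2.15 ± 0.17 and Kif18b by 1.75 ± 0.14. The bipolarity motor Kif11 rose by 1.59 ± 0.14 and its partner in spindle assembly Kif15 by 1.48 ± 0.22. Smaller rises were those of Kif20a (0.94 ± 0.13), the chromokinesin Kif4 (0.85 ± 0.12) and Kif18a (0.47 ± 0.18), which damps the movement of chromosomes; the Kif18a call was lost in 4 of 9 fits that left out a library, without L1C input replicate 2 or 3 or L2C input replicate 1 or 3, and its log2 change ran from 0.30 to 0.64. Kif20b, at -0.20 ± 0.17, did not pass the test.

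The 2 exceptions in the class were both cytokinesis motors. Kif23 fell from 576, 477 and 502 to 161, 147 and 168 CPM (-1.71 ± 0.12, adjusted p = 4.73e-09). Kif14 fell from 124, 109 and 129.5 to 36.1, 40.6 and 38.8 CPM (-1.65 ± 0.12, adjusted p = 7.39e-09). Their L1C and L2C libraries did not overlap; Kif20a, which also acts in cytokinesis, moved the other way as given above.

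**Figure D2:**
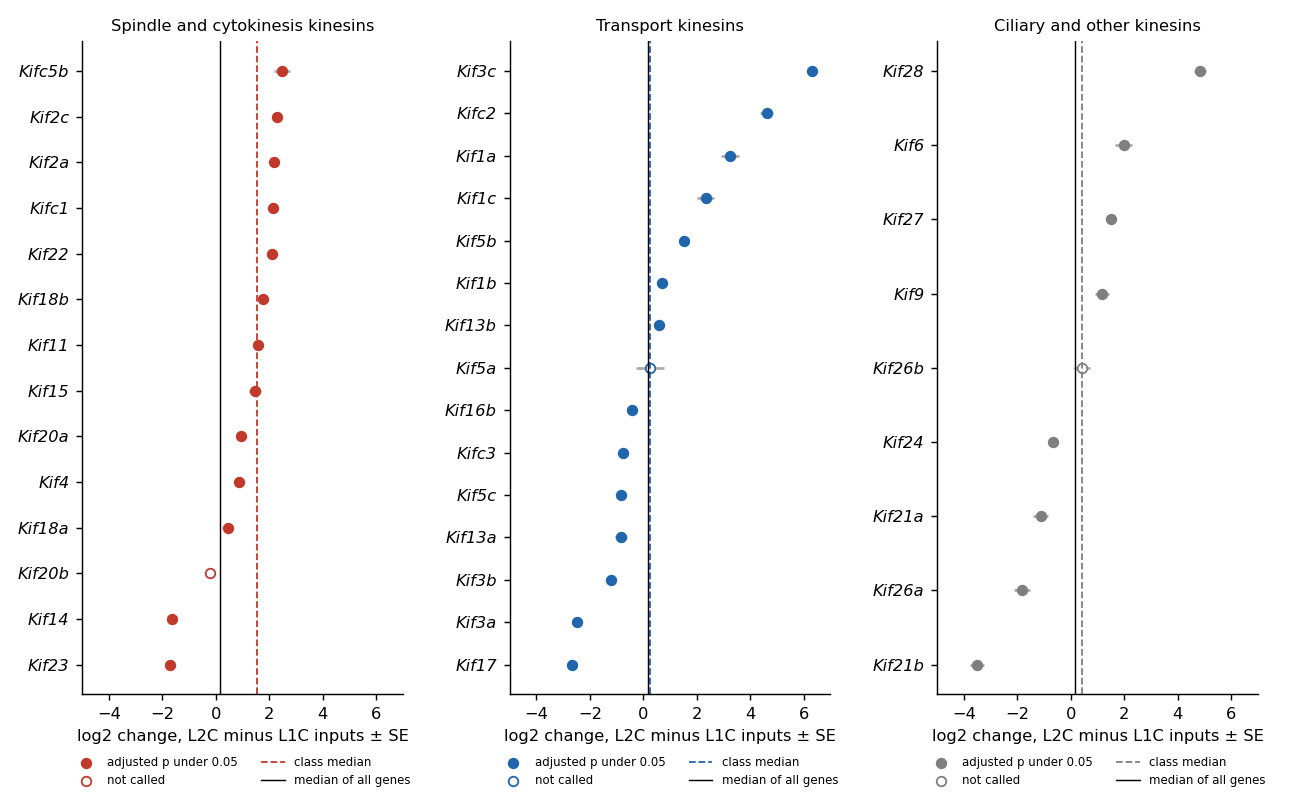
Log2 change from L1C to L2C inputs with its SE for the 38 kinesins tested, in 3 panels by class; filled points have an adjusted p under 0.05 (edgeR, over all genes tested), the dashed line is the class median and the solid line the median of all genes. The spindle points lie mostly right of the all-gene median (class median 1.53), while the transport points reach from -2.67 (Kif17) to 6.30 (Kif3c).

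Transport kinesins moved in both directions. Kif3c, a neuronal partner of Kif3a, rose from 2.41, 1.95 and 2.21 to 179.6, 166 and 175 CPM (6.30 ± 0.15, adjusted p = 5.75e-13), the largest rise of any kinesin at this step. Its antisense neighbour Gm48512 had a mean count of 659 against 1185 for Kif3c over the 18 libraries, and its part in the rise was not tested. Kifc2 rose from 0.888, 2 and 1.13 to 30.6, 35.4 and 32.5 CPM (4.61 ± 0.25, adjusted p = 4.22e-10). Kif1a (3.23 ± 0.34), Kif1c (2.33 ± 0.31), Kif5b (1.52 ± 0.13), Kif1b (0.71 ± 0.12) and Kif13b (0.59 ± 0.17) rose too; Kif1a and Kif1c stayed under 6 CPM in each library.

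In the opposite direction, Kif17 fell from 359, 478 and 492 to 63.1, 78.9 and 67.5 CPM (-2.67 ± 0.14, adjusted p = 4.04e-10), below its MII level. Kif3a fell from 82.5, 78.2 and 80.8 to 13.6, 13 and 16.2 CPM (-2.49 ± 0.12, adjusted p = 1.73e-10). Kif3b, the usual partner of Kif3a in the kinesin-II motor, was lower too, at -1.22 ± 0.18, and at L2C Kif3c had the highest TPM of the 3 kinesin-II genes. Kif13a (-0.84 ± 0.22), Kif5c (-0.83 ± 0.11), Kifc3 (-0.78 ± 0.17) and the endosomal motor Kif16b (-0.42 ± 0.14) were also lower, and the Kif16b call was lost without L1C input replicate 3, where its log2 change was -0.32. Among the remaining kinesins Kif28 rose by 4.83 ± 0.24 and Kif21b fell, at -3.51 ± 0.28.

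Over the whole interval from MII to L2C, 24 kinesins were higher and 13 lower, beside 47.5% and 37.1% of all genes, whose median change was 0.40. Spindle kinesins were higher in 11 and lower in 2 of 14 (median log2 change 1.35), and transport kinesins higher in 8 and lower in 7 of 15 (median 0.41). On log2(TPM + 1) these medians were 0.39 and -0.24 with an all-gene median of -0.07, and 17 kinesins were higher and 15 lower. The L2C inputs shared with the previous comparison make these values a restatement of the same libraries, given for size. Kif3a changed by -3.61 ± 0.13, Kif23 by -2.72 ± 0.12, Kifc3 by -2.69 ± 0.18 and Kif14 by -2.25 ± 0.12, and Kif3c by 7.38 ± 0.17, Kifc2 by 6.09 ± 0.29, Kif22 by 2.51 ± 0.16 and Kif18b by 1.84 ± 0.14. Taking both steps, 7 of 38 kinesins fell at both, beside 10.5% of all genes tested, among them Kif23, Kif14, Kif3a, Kif13a and Kifc3 (the first step of Kif13a was lost in 5 of 9 fits that left out a library, with -0.71 to -0.49 over the 9), 7 rose at both steps, beside 14.7%, 3 fell and then rose, beside 9.78% (among them Kif1b, whose first step was lost in 7 of 9 such fits, with -0.35 to -0.23 over the 9), and 2, Kif17 and Kif5c, rose and then fell, beside 12.3%. Kif18b, one of those higher at L2C than at MII, had 39.7, 46.6 and 38.4 CPM at MII and 145, 161 and 140.4 at L2C, and Kifc2 had 0.474, 0.4 and 0.564 at MII. Kif14 and Kifc3, lower at L2C, began at 176, 182 and 193 CPM (Kif14, MII) and ended at 35.9, 36.5 and 36.2 CPM (Kifc3, L2C).

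A short promoter element was counted more often in spindle than in transport kinesins. TTTGAA, read on either strand, is the cell cycle genes homology region, an element known from promoters of genes of the late cell cycle. RefSeq windows of 300 bases around the start (GRCm38.p6, 250 bases before to 50 after) matched 33 of the 42 kinesins; those without an entry were Kif13b, Kif19a, Kif20a, Kif21b, Kif28, Kif5a, Kif5b, Kifc2 and Kifc3. The element stood in 11 of 14 spindle windows, 1 of 10 transport windows and 2 of 9 others, beside 20.2% of all windows and 17.6% of those of protein-coding genes. Wholly within 30 bases of the start it stood in 8 of 14 spindle windows, 0 of 10 transport windows and 1 of 9 others, beside 3.39% of all windows. That of Kifc5b began at position 29 and ran past this limit, so it is not among the 8. The start matters for these counts, and in 15 of 37 RefSeq entries of kinesins the bases just after it equalled those at the start of a transcript in the genome annotation. CCAAT, on either strand, was in 9 of 14, 3 of 10 and 4 of 9 windows, beside 41.1% of all. Shown are the 30 bases around the element closest to the start in the 8 spindle kinesins and in Kif26b, the other kinesin counted there, 5′ to 3′ on the gene's strand, with the element or its reverse complement TTCAAA in capitals:
Kif11 (chr19:37376351-37376380, plus strand): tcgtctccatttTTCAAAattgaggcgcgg
Kif15 (chr9:122951050-122951079, plus strand): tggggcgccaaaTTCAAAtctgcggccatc
Kif18b (chr11:102925104-102925133, minus strand): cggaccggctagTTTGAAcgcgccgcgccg
Kif20b (chr19:34922353-34922382, plus strand): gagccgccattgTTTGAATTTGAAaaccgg
Kif22 (chr7:127042420-127042449, minus strand): gggccccggtaaTTCAAAagagagaagcgg
Kif23 (chr9:61946780-61946809, minus strand): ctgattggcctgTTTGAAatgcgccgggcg
Kif4 (chrX:100626072-100626101, plus strand): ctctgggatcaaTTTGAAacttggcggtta
Kifc1 (chr17:33890615-33890644, minus strand): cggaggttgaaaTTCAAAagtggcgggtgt
Kif26b (chr1:178529104-178529133, plus strand): tgggagaatttcTTTGAActcagttagcga
In Kif20b 2 copies stand side by side. A match is a description of the window and not of a bound factor.

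Genes that work with kinesins gave a mixed picture at the same step. Of 19 spindle partners (genes of the spindle, kinetochore, midzone and passenger complex) 10 rose and 7 fell from L1C to L2C, beside 44.1% and 38.8% of all genes, with Hmmr (3.50 ± 0.14) and the passenger kinase Aurkb (2.12 ± 0.16) at the top and Cit (-1.25 ± 0.14), the citron kinase that Kif14 binds, and Aurkc (-1.14 ± 0.17), the passenger kinase of germ cells, at the bottom. Their median change was 0.48, against 1.53 in the spindle kinesins. Of 17 cargo adaptors 10 rose and 4 fell, with Mapk8ip2 (5.73 ± 0.51) and Plekhm2 (4.17 ± 0.27) leading the rises. Mapk8ip2 had 0.0423, 0.279 and 0.108 CPM in the L1C inputs, so the size of its rise rests on few reads. The mitochondrial adaptor Rhot2 (-1.78 ± 0.15) was among the falls. Rab3gap1 (-3.15 ± 0.12), a subunit of the Rab3 GTPase-activating complex that is counted in this list, fell as well and is not itself a cargo adaptor. Of 22 genes of dynein, the motor that walks toward microtubule minus ends, its cofactor dynactin and their regulators, 8 rose and 13 fell. This list, called dynein and dynactin below, includes the adaptor Bicd2 and the regulators Pafah1b1, Nde1 and Ndel1. The light intermediate chain Dync1li1 stood at 3.61 ± 0.15 and the heavy chain Dync1h1 at 3.46 ± 0.18. The intermediate chain Dync1i2 stood at -3.29 ± 0.13 and the dynactin subunit Dctn5 at -3.07 ± 0.24. Cenpe, the kinetochore kinesin that the symbol rule leaves out, fell at both steps, with log2 changes of -0.46 ± 0.14 and -0.34 ± 0.14.

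In the m6A capture, kinesin mRNAs were more often depleted than enriched. IP libraries were lower than inputs for 15, 18 and 16 of 38 kinesins at MII, L1C and L2C (edgeR, adjusted p under 0.05), beside 21.0%, 18.2% and 22.0% of all 21950 genes tested, and higher for 3, 1 and 7, beside 17.7%, 15.8% and 22.0%. Spindle kinesins were depleted in 7, 8 and 7 of 14 cases and enriched in 1, 1 and 3, with median log2(IP/input) of -0.25, -0.38 and -0.43. Transport kinesins were depleted in 6, 6 and 7 of 15 cases and enriched in 1, 0 and 1, with medians of -0.30, -0.56 and -0.31. The median of all genes was 0.00, 0.07 and 0.09. Without TMM scaling it was 0.20, 0.37 and 0.34, and the split of kinesins became 7 higher and 13 lower, 6 and 10, and 9 and 13. The spindle medians then came close to 0, at -0.009, -0.079 and -0.177, and the transport medians were -0.059, -0.255 and -0.058. IP/input is relative within a library and does not give the share of molecules that carry m6A.

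Kif2a was the exception, enriched at all 3 stages as were 6.5% of all genes tested. At MII it had 4.53, 5.63 and 5.57 CPM in inputs and 16, 14.5 and 20.6 in IPs (log2(IP/input) 1.70 ± 0.18, adjusted p = 3.23e-07). At L1C the values were 6.2, 6.6 and 5.33 and 16.6, 19.5 and 18 (1.58 ± 0.17, adjusted p = 1.04e-06), and at L2C 26.6, 17.9 and 25.4 and 50.9, 59.1 and 56 (1.24 ± 0.16, adjusted p = 6.24e-06). Every IP library stood above every input of its stage. Its coding sequence of 2229 bases held a single GGACT, the most common sequence context of m6A. That is 0.449 per coding kilobase, against a median of 0.97 over 38 kinesins. These counts cover coding sequence alone, and whether the site carries m6A was not tested. The site, at position 284, is shown with the motif in capitals because Kif2a was the kinesin enriched throughout:
Kif2a coding sequence: taaagaaccggcGGACTgtggcagctgtt
Over 38 kinesins the density of GGACT per coding kilobase had a Spearman correlation of -0.10, -0.30 and -0.19 with IP/input at the 3 stages, and over 16118 protein-coding genes of -0.07, -0.08 and -0.09; genes share libraries and are not replicates, and no p is given. Kif15 and Kif20b were the other spindle kinesins enriched at L2C. Kif15 had 6.57, 5.14 and 7.11 CPM in inputs and 11.9, 15.5 and 13.4 in IPs (1.11 ± 0.19, adjusted p = 0.000151). Kif20b had 182, 116 and 134 and 234, 262 and 254 (0.79 ± 0.18, adjusted p = 0.00125). Neither overlapped. The transport kinesin Kif16b was enriched there too, with 20.8, 18.3 and 21.2 CPM in inputs and 27.8, 27.1 and 23.9 in IPs (0.38 ± 0.13, adjusted p = 0.0238), a call lost in 3 of 18 fits that left out a library, with 0.31 to 0.45 over the 18.

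Of the ciliary and other kinesins, 1, 0 and 3 of 9 were enriched at the 3 stages, beside 17.7%, 15.8% and 22.0% of all genes. Depleted were 2, 4 and 2 of 9, beside 21.0%, 18.2% and 22.0%. Kif21a and Kif21b, which restrain microtubule growth, were enriched at L2C, at 0.81 ± 0.26 and 1.16 ± 0.25, and so was Kif26b, at 1.20 ± 0.24. The Kif21a call at L2C was lost in 3 of 18 fits that left out a library, with 0.62 to 0.98 over the 18. Kif21b had 15, 11 and 27 counts in the L2C inputs and 63, 17 and 44 in the IPs. Kif26a was depleted by contrast, with log2(IP/input) of -2.25 ± 0.27, -1.52 ± 0.29 and -2.28 ± 0.41, as was the centriolar kinesin Kif24, with -1.29 ± 0.11, -1.24 ± 0.11 and -0.54 ± 0.11. The Kif26a value at L2C rested on IPs of 9, 2 and 3 counts.

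Depletion at all 3 stages was found for 9 of 38 kinesins, beside 9.54% of all genes tested: the spindle motors Kif20a, Kif18b, Kif2c and Kifc1, the transport motors Kif1b, Kif3b and Kifc3, and Kif24 and Kif26a. Kif20a had 479, 413 and 433 CPM in MII inputs and 109, 119.5 and 91.4 in IPs (-2.05 ± 0.13, adjusted p = 5.82e-10). At L1C it stood at 339.9, 314 and 409 and 128, 109.5 and 104 (-1.64 ± 0.13), and at L2C at 518, 621 and 591 and 177, 192 and 184 (-1.64 ± 0.13). Inputs and IPs did not overlap at any stage. Kifc1 had 16.6, 19 and 18 CPM in MII inputs and 3.03, 3.17 and 4.5 in IPs, 10.2, 16.6 and 13 and 6.8, 6.98 and 8.97 at L1C, and 48.5, 49.7 and 51.4 and 18.8, 14.2 and 18.3 at L2C (-2.33 ± 0.20, -0.80 ± 0.18 and -1.53 ± 0.18). Kif18b had 48.5, 55.9 and 45.7 CPM in MII inputs and 13.9, 19.4 and 14.4 in IPs (-1.65 ± 0.16), and later -0.83 ± 0.16 and -1.26 ± 0.15. In both, MII inputs and IPs were apart. Kifc3 had 250, 302 and 293 CPM in MII inputs against 27, 32.4 and 32.7 in IPs (-3.20 ± 0.21, adjusted p = 8.51e-10), and at L1C 50.5, 86.7 and 73.8 against 25.5, 24.4 and 42.4 (-1.19 ± 0.20), with -1.16 ± 0.20 at L2C. Kif5c did not pass the test at MII, with 85, 82.9 and 84 CPM in inputs and 73.8, 78.7 and 65.6 in IPs. It was depleted at L1C, with 119, 110 and 122 and 65.6, 64.1 and 60.8 (-0.88 ± 0.10), and at L2C (-0.69 ± 0.10). Every Kif5c IP lay below every input of its stage. The Kif2c call at L1C (-0.49 ± 0.15) was lost without L1C input replicate 3 or L1C IP replicate 3, the Kif1b call at L2C (-0.31 ± 0.11) without L2C input replicate 3 or L2C IP replicate 1, and the Kif3b call at L2C (-0.51 ± 0.18) without replicate 2 or 3 of either kind of L2C library; over all 18 fits that left out a library the log2 values ran from -0.61 to -0.34, -0.36 to -0.26 and -0.61 to -0.42.

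**Figure D3:**
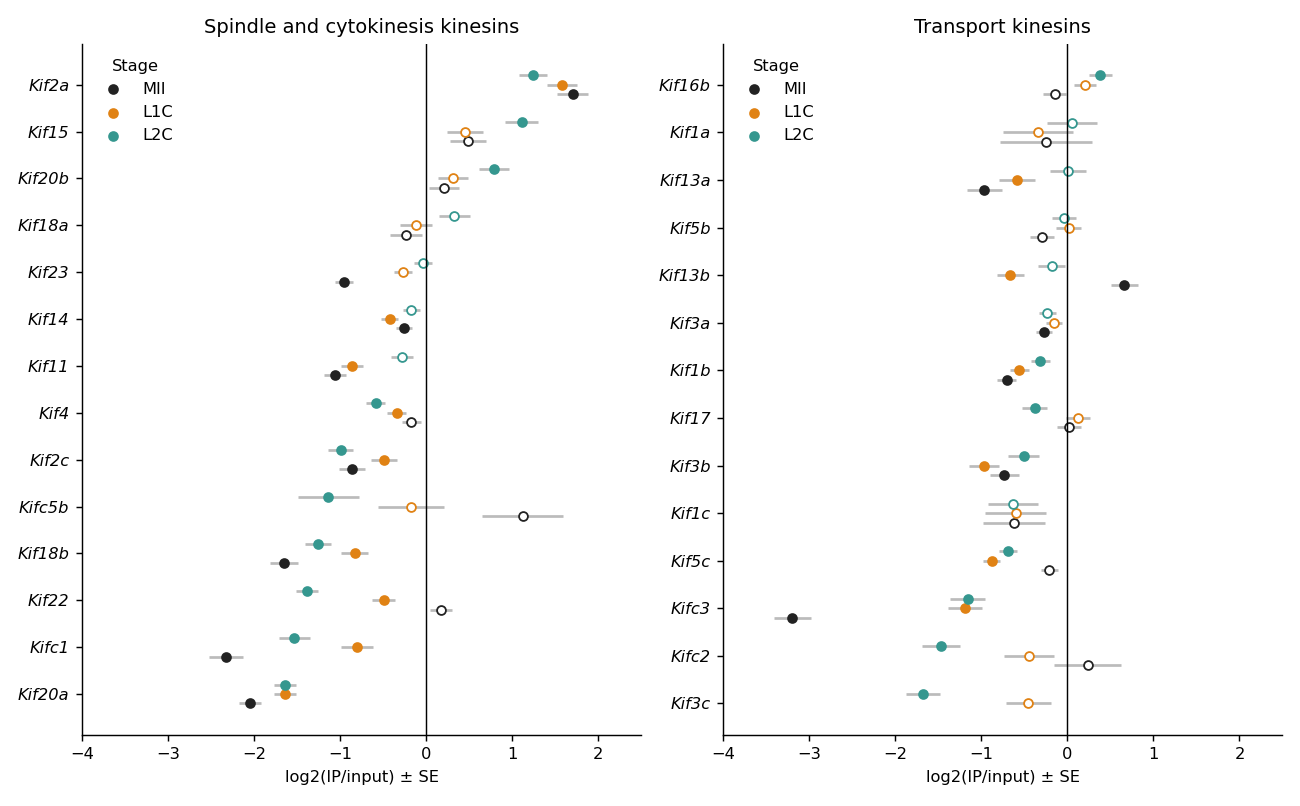
Log2(IP/input) with its SE at MII, L1C and L2C for spindle and cytokinesis kinesins (left) and transport kinesins (right); filled points have an adjusted p under 0.05 (edgeR). Kif2a lies right of 0 at each stage and Kif20a, Kifc1, Kif18b and Kifc3 left of it, while Kif22 moves from 0.17 at MII to -1.39 at L2C; without TMM scaling the all-gene median moves to between 0.20 and 0.37. Kif5a at each stage and Kif3c at MII, with few counts, are left out.

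The IP/input ratio of some kinesins also changed between stages, tested as the difference of stages itself. At L1C 5 of 38 kinesins had a higher ratio than at MII and 4 a lower one, beside 3.13% and 4.21% of all genes. At L2C 3 were higher than at L1C and 2 lower, beside 5.0% and 4.47%, and 10 were higher than at MII and 5 lower, beside 11.1% and 9.21%. Kif22 had 83.1, 88.1 and 97.9 CPM in MII inputs and 98.5, 112 and 91.8 in IPs, which overlap. At L1C inputs had 89.6, 112 and 132 and IPs 79, 74 and 83.7, and at L2C inputs had 378, 443 and 402 and IPs 164, 143 and 160.3. The L2C inputs were over 2 times the IPs, and the change of the log2 ratio from MII to L2C was -1.55 ± 0.18 (adjusted p = 8.4e-06, edgeR). Its antisense neighbour Gm31749 had a mean count of 1879 against 4249 for Kif22.

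Kif23 went the other way. It was depleted at MII, with 1253, 1231 and 1296 CPM in inputs and 664, 612 and 669 in IPs (-0.96 ± 0.11). At L2C the ratio was -0.04 ± 0.11, with inputs at 156, 139 and 163 and IPs at 156, 142 and 147 CPM, and the difference of stages was 0.92 ± 0.15 (adjusted p = 0.000211). At L1C its inputs had 660.1, 542 and 564 and its IPs 530.1, 496 and 442 CPM. Kif11 had 67.1, 72.7 and 73.3 CPM in MII inputs and 36.3, 28.9 and 37.1 in IPs, 70.2, 58.4 and 51.2 and 31.6, 33.3 and 33.7 at L1C, and 159.8, 132 and 167 and 128, 119.8 and 130 at L2C. It became less depleted from MII to L2C (0.78 ± 0.18, adjusted p = 0.00426), where its log2(IP/input) of -0.28 ± 0.13 did not pass the test although every IP lay below every input, and Kifc3 became less depleted from MII to L1C (2.01 ± 0.28, adjusted p = 0.000125) while its input fell. Kif13b was enriched at MII (0.66 ± 0.16) and depleted at L1C (-0.67 ± 0.16), a difference of -1.33 ± 0.22 (adjusted p = 0.000698). Its MII inputs had 14.8, 11.3 and 13.5 CPM and its IPs 22.4, 23.5 and 16.4, its L1C inputs 14.2, 14.8 and 16.8 and its IPs 10.3, 9.53 and 9.08, without overlap at either stage. For Kif3c at MII the IPs had 2, 0 and 0 counts and the inputs 25, 21 and 17, so no ratio is given there. At L1C it had 2.76, 2.22 and 2.48 CPM in inputs and 2.22, 1.03 and 2.19 in IPs, and at L2C 174, 157 and 169 and 50.6, 41.9 and 63.1 (-1.68 ± 0.20). Kifc2 had 0.58, 0.479 and 0.67 CPM in MII inputs and 0.4, 0.934 and 0.678 in IPs, and 29.7, 33.6 and 31.5 and 14, 9.35 and 10.6 at L2C. Its MII libraries overlapped and its L2C libraries did not, which was also so for Kifc5b, with 1.48, 0.479 and 0.469 and 1.54, 2.7 and 1.17 CPM at MII and 12.4, 12.2 and 15.1 and 8.79, 2.89 and 5.91 at L2C.

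**Figure D4:**
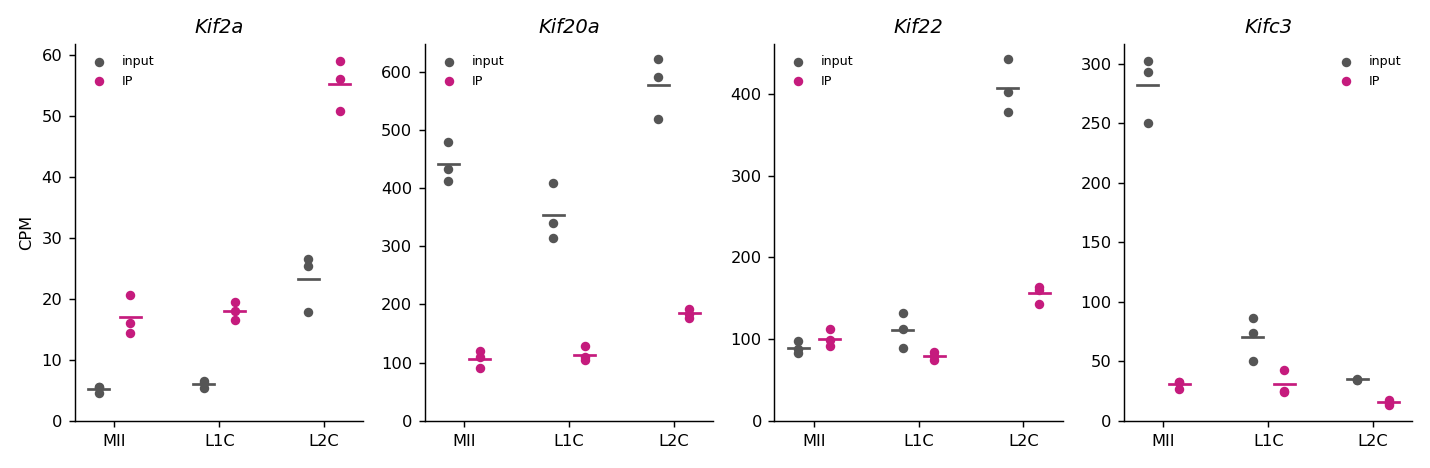
CPM of Kif2a, Kif20a, Kif22 and Kifc3 in each input and IP library at MII, L1C and L2C; each dot is 1 library and each bar the mean of 3, and the vertical axes start at 0 and differ between panels. Kif2a IPs lie above inputs and Kif20a IPs below at each stage, Kif22 inputs and IPs overlap at MII and are apart at L2C, and the Kifc3 inputs fall from 250 or more at MII to about 35 at L2C.

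Of the cargo adaptors 1, 0 and 0 of 18 were enriched and 9, 9 and 10 depleted at the 3 stages, beside the shares of all genes given above (17.7%, 15.8% and 22.0% enriched, 21.0%, 18.2% and 22.0% depleted). Spindle partners were enriched in 3, 2 and 6 of 19 cases and depleted in 7, 7 and 10, and dynein and dynactin genes were enriched in 10, 6 and 7 of 22 and depleted in 4, 5 and 7. Cenpe had a log2(IP/input) of 0.35 ± 0.15, 0.81 ± 0.15 and 1.00 ± 0.15, the last 2 past the test.

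The knockdown compared these mRNAs between Ythdc1 KD and Ctrl embryos at L2C. Ctrl embryos had no crRNA, so effects of the crRNAs themselves and of less Ythdc1 cannot be told apart. Ythdc1 itself had 523, 541 and 519 CPM in KD and 1080, 1098 and 994 in Ctrl libraries on the scale of the table ending on chromosome 7, a log2 change of -1.004 ± 0.06 (edgeR), and no libraries overlapped. Of the 12 kinesins tested there, 3 were higher and 3 lower in KD, beside 33.5% and 37.4% of all genes, and of 22 tested beyond it 8 were higher and 5 lower, beside 30.5% and 36.4%. Over the whole libraries spindle kinesins were higher in 5 and lower in 1 of 14, with a median log2 change of 0.24, and transport kinesins higher in 4 and lower in 6 of 13, with a median of -0.28, while the median of all genes was -0.09; both class medians kept their sign under the alternatives run. Summed CPM in whole libraries of the 6 2-cell markers were 289.9 to 326 in KD and 1001 to 1053 in Ctrl, and all 6 were lower. Those of the 8 oocyte markers were 708 to 763 and 1490 to 1608, with 6 lower and 1 higher, and those of the 8 cumulus markers 8.45 to 10.4 and 12.3 to 13.4, with Fshr, Inhba, Pgr and Ptx3 at 0 and 2 of the 3 tested lower. Those of the 5 sperm markers were 0 to 0.107 and 2.105 to 4.134, with Odf1 and Prm1 at 0 and the 1 tested lower. The part of these differences in the kinesin values was not tested.

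The 5 spindle kinesins higher in KD were Kif18a, Kif2c, Kif20b, Kif22 and Kif11. Kif18a had 1322, 1159 and 1277 CPM in KD and 700, 690.2 and 565 in Ctrl (0.94 ± 0.08, adjusted p = 5.65e-09). Kif2c had 559.8, 612 and 599 against 348, 363 and 420 (0.65 ± 0.07, adjusted p = 3.81e-07). In both every KD library lay above every Ctrl library. In whole libraries Kif20b had 939.8 and 877 CPM in KD and 635, 611 and 558 in Ctrl (0.59 ± 0.07, adjusted p = 4.62e-06), and Kif22 had 166 and 181 against 99.1, 101 and 117 (0.72 ± 0.09, adjusted p = 7.85e-06). Kif11 was higher by 0.38 ± 0.08. These too did not overlap.

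Kif14 was the spindle kinesin that was lower, with 73.6, 66 and 87.5 CPM in KD and 132, 123 and 124 in Ctrl (-0.73 ± 0.11, adjusted p = 5.59e-06). The differences of Kif4 (-0.00 ± 0.08), Kif23 (0.01 ± 0.08), Kif20a (0.06 ± 0.10), Kif2a (-0.00 ± 0.09), Kif15 (-0.01 ± 0.13), Kif18b (0.10 ± 0.11) and Kifc1 (0.37 ± 0.33) did not pass the test. Nor did that of Kifc5b, at 0.87, with 26 and 28 counts in KD and 17, 19 and 17 in Ctrl libraries. Kif2a, enriched in the capture at each stage, and Kif20a, depleted at each, are both among those that did not pass. Of the other kinesins depleted at each stage, Kif2c and Kif1b were higher in KD and Kifc3 lower. Kif18b, Kifc1, Kif3b and Kif24 did not pass, and Kif26a was not tested. A relation between capture and knockdown was not tested.

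Among transport motors the largest differences were losses. Kif17 had 17.9, 20 and 20.3 CPM in KD and 67.4, 59.8 and 67.2 in Ctrl (-1.73 ± 0.13, adjusted p = 1.47e-09). Kif16b had 26.5, 31.2 and 33.7 against 86.4, 100.4 and 97.3 (-1.63 ± 0.12, adjusted p = 1.3e-09). Both groups of libraries were well apart. Kif3a was higher instead, with 16.5 and 15.7 CPM in KD and 5.88, 4.98 and 6.21 in Ctrl (1.51 ± 0.18, adjusted p = 2.82e-06), again without overlap. Kif5b had 168 and 158 CPM in KD and 128, 119 and 114 in Ctrl (0.44 ± 0.09). Kif1b had 379, 319 and 364 and 295, 281 and 268 (0.33 ± 0.08). Both were higher in every KD library, and Kif13b rose by 0.56 ± 0.17. Kif1c had 1 and 3 counts in the KD libraries and 22, 34 and 16 in the Ctrl libraries.

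Of the 13 calls among whole-library genes, 6 were lost without a single library. With 1 KD library left out, the remaining one is assumed to vary like the Ctrl libraries, from which the spread then comes alone. Those of Kif13a (-1.18 ± 0.39) and Kif21a (1.92 ± 0.58) were lost without KD replicate 2, at -0.74 and 1.67 (Kif13a was at -1.85 without KD replicate 1), and those of Kif13b and Kif27 (-0.49 ± 0.14) without KD replicate 1, at 0.46 and -0.42. Kifc3 (-0.99 ± 0.32) was lost without KD replicate 1 (-0.81) or Ctrl replicate 3 (-0.70), and Kif3c (-0.28 ± 0.10) without KD replicate 1 (-0.32) or KD replicate 2 (-0.23). Kif21a rested on 12 and 15 counts in KD and 7, 5 and 1 in Ctrl libraries. In KD and Ctrl libraries Kif13a had 2.31 and 1.07 against 2.87, 3.98 and 5.1 CPM, Kifc3 2.68 and 3.42 against 4.78, 5.05 and 8.64, and Kif3c 47.5 and 44.6 against 54.1, 54 and 60.2. Kif6, a ciliary kinesin, was higher by 1.23 ± 0.35. Of the spindle partners 11 of 19 were higher and 3 lower in whole libraries, beside 30.5% and 36.4% of all genes, and in the 6-library table Cenpe (0.78 ± 0.06) and Aurka (0.67 ± 0.08) were higher and Nusap1 (-0.59 ± 0.06) and Cit (-0.39 ± 0.08) lower. Cargo adaptors were higher in 4 and lower in 8 of 17, and dynein and dynactin genes higher in 7 and lower in 4 of 20.

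**Figure D5:**
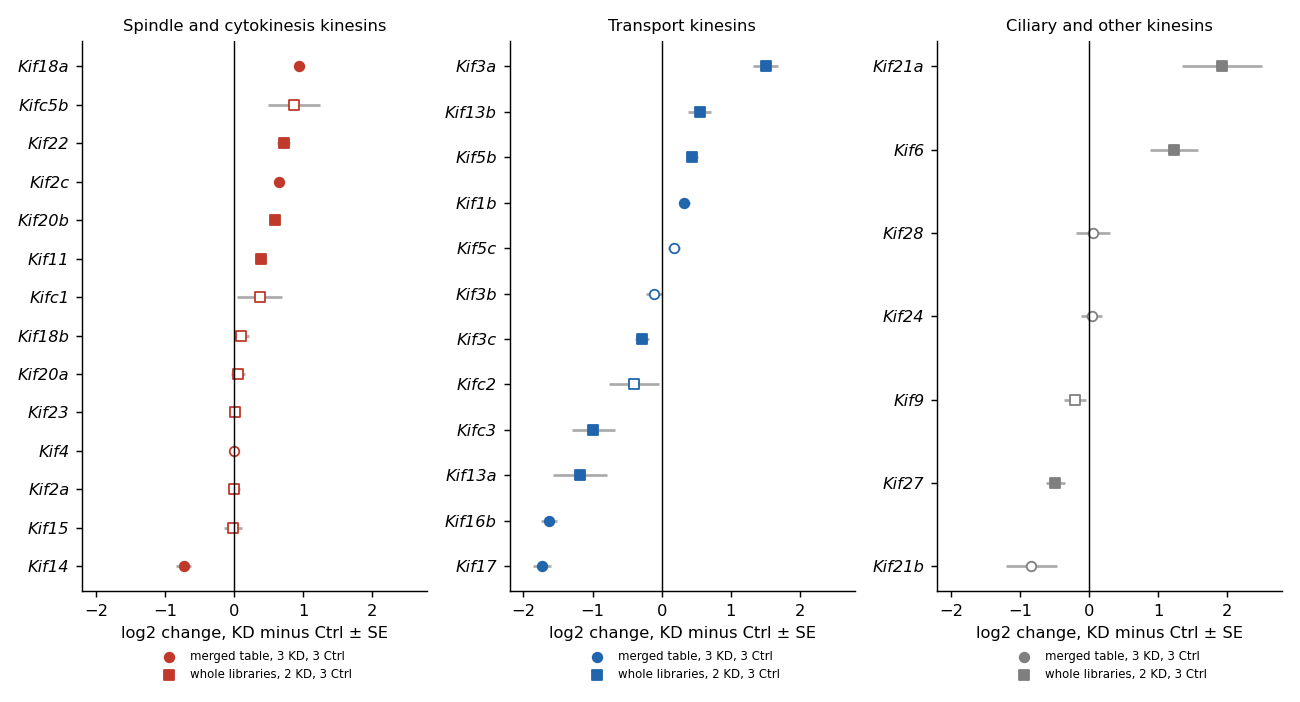
Log2 change in Ythdc1 KD against Ctrl with its SE for 33 kinesins in 3 panels by class; circles are genes of the table with 3 KD and 3 Ctrl libraries, squares genes of whole libraries with 2 KD and 3 Ctrl, and filled points have an adjusted p under 0.05 (edgeR). Spindle kinesins reach from -0.73 (Kif14) to 0.94 (Kif18a) and transport kinesins from -1.73 (Kif17) to 1.51 (Kif3a); Kif1c, with few counts, is left out.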

How the data were processed

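Members, role classes, partner lists and tests were chosen with earlier results of these data known. Per the labels RNA came from B6D2F1 oocytes and embryos, with libraries made by a stranded kit, whereas the study's methods give a Smart-seq2 protocol with Tn5. For SLIM-seq the authors deposited kallisto estimated counts and TPM per gene on GRCm38. The target names hold coordinates, and the target length equalled the whole gene span, introns included, for all 55471 genes; counts are read here as whole-span counts on that ground. For the knockdown the authors deposited raw counts per gene on exons (Trimmomatic, HISAT2, featureCounts without a strand option). Reads of a gene and an antisense partner can therefore not be told apart in the knockdown, and strand use by kallisto is not given in the sources used here.

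Estimated counts were rounded. Tests were edgeR 4.0.16 (R 4.3.3) quasi-likelihood fits with TMM scaling and filterByExpr over all genes: 9 inputs for changes between stages, 18 libraries for IP against input and its change between stages, 6 libraries for the knockdown table and 5 whole libraries for genes beyond it. P-values were adjusted by Benjamini-Hochberg over all genes tested, and a call is an adjusted p under 0.05. The SE is the absolute log2 change over the root of F. CPM used the fit's scaling factors; levels used the deposited TPM. Alternatives were DESeq2 1.42.0, library size alone, no filter, the replicate block, the stages compared alone and limma 3.58.1 on log2(TPM + 1). Others were stricter call rules, thresholds taken from the study's rules, exon length, a pseudocount of 0.1, and each library left out. Per-library values were given for the spindle and transport kinesins with the 4 smallest p in each direction where these passed the test (not for ciliary and other kinesins), and partner genes by the 2 largest changes in each direction; Cenpe and Ythdc1 were named by rule. In simulated counts of the L1C to L2C comparison, 99 of 100 changes of 2 on the log2 scale and 66 of 100 of 1 were found over 19903 genes. For the change of IP/input from MII to L1C these were 85 and 27 of 100 over 21950 genes. The changed genes all had expected counts above a floor, so these figures do not cover kinesins with few counts. No replicate pair agreed within sampling noise (chi-square per degree of freedom 2.67 to 37.1). Promoters and coding sequence came from RefSeq and the genome annotation. No column of authors' comparisons was used.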

Additional observations from a re-analysis of the deposited data

Results flagged for a closer look

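The log2(IP/input) of 29 kinesin and stage pairs differed by a test of the difference of stages itself (edgeR, adjusted p under 0.05). From MII to L1C it rose for Kifc3 (2.01), Kifc1 (1.525), Kif18b (0.8185) and Kif23 (0.6927) and fell for Kif13b (-1.326), Kif27 (-1.03), Kif5c (-0.6734) and Kif22 (-0.6639). From L1C to L2C it rose for Kif21b (1.977), Kif24 (0.6983) and Kif11 (0.5868) and fell for Kif22 (-0.8901). From MII to L2C it rose for Kifc3 (2.038), Kif26b (1.591), Kif21b (1.583), Kif13a (0.9703), Kif23 (0.9198), Kifc1 (0.7929), Kif11 (0.78), Kif24 (0.7466) and Kif16b (0.5327). It fell for Kifc5b (-2.261), Kifc2 (-1.705), Kif22 (-1.554), Kif13b (-0.8433) and Kif5c (-0.4837). The Kifc5b value ran from -3.08 without MII input replicate 1 to -1.85 without MII IP replicate 2, with 28, 8 and 7 counts in the MII inputs. Kif3c was called at each step (4.407, -1.225 and 3.182), but its MII IPs held 2, 0 and 0 counts, so the first and last of these values depend on the prior count and are no bounds.

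Many of these calls stood close to the threshold. From MII to L1C 3 of 9 were lost without some single library, from L1C to L2C 2 of 5, and from MII to L2C 5 of 15. The Kif11 call from L1C to L2C was lost in 15 of 18 fits that left out a library, those of Kif16b and Kifc1 from MII to L2C in 13 and 12, that of Kif22 from MII to L1C in 8, and those of Kif18b and Kif27 in 6 each. In that order, their log2 values over all 18 fits were 0.45 to 0.68, 0.45 to 0.60, 0.68 to 0.98, -0.80 to -0.53, 0.73 to 0.99 and -1.24 to -0.87. Kif13a and Kif5c from MII to L2C were lost in 4 fits each, with ranges over all 18 of 0.77 to 1.09 and -0.56 to -0.43, Kif3c from L1C to L2C in 2, without L1C IP replicate 1 or 3 (-1.52 to -1.04 over all 18), and Kifc2 in 1, without MII IP replicate 2 (-1.98 to -1.38).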

How the results depend on the processing

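With limma on log2(TPM + 1), 6 kinesins were higher and 16 lower from MII to L1C, the spindle medians were 0.6828 (L1C to L2C) and 0.3945 (MII to L2C), the transport median from MII to L2C was -0.2403, and the MII to L2C changes of Kif18a (-0.04551), Kif1b (-0.2382), Kif20a (-0.01916), Kif4 (-0.1324) and Kif5b (-0.2403) reversed. Requiring a log2 change above 1 left 5 lower from MII to L1C and 8 lower from L1C to L2C. DESeq2 gave a spindle median of 1.675 from L1C to L2C, 5 and 2 kinesins enriched at MII and L1C, and 5 falling IP/input ratios from L1C to L2C. Library size alone gave 7 and 6 enriched at MII and L1C, 10 depleted at L1C, spindle medians of -0.009152, -0.07916 and -0.1774 and a transport median of -0.05815 at L2C. Part of the study's tag rule (unadjusted p under 0.05, log2 above 0, more than 1 count in each input) gave 6 and 3 enriched at MII and L1C. Its condition on replicates and its rule for a missing p were not applied. The thresholds of its knockdown rule (unadjusted p under 0.05, absolute log2 change above 1) gave 0 higher within the table. Beyond it they gave 3 higher and 2 lower. IP/input ratios rising from L1C to L2C numbered 1 without the filter on low counts and 1 with only the stages compared, which gave 4 falling. The gap of class medians, spindle minus transport on log2(TPM + 1), was 3.079, 2.604 and 2.505 at MII, L1C and L2C, against 3.937, 3.365 and 3.009 with a pseudocount of 0.1 and 1.636, 1.787 and 2.067 per exon kilobase. The cause of these shifts was not tested. Of 7280 alternative values of single genes, 6987 kept their direction and side of the threshold, 73 gained the call, 215 lost it and 5 reversed.

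Leaving out 1 library gave 1 to 2 kinesins enriched at L1C and 3 to 5 at MII, 2 to 4, 1 to 4 and 3 to 6 falling IP/input ratios (MII to L1C, L1C to L2C, MII to L2C), 2 to 5 lower in KD beyond the table (2 without KD replicate 1, 3 without KD replicate 2) and transport medians of -0.1058 to 0.658 from L1C to L2C. Same-numbered SLIM-seq libraries had correlated deviations (r) from -0.305 to 0.295, over 0.1 in 10 of 45 pairs. For IP and input of the same stage r ran from -0.301 to 0.182. Knockdown libraries had r from -0.0388 to 0.0477, over 0.1 in 0 of 3. With 3 libraries per group, these values cannot decide whether replicate numbers pair the libraries. With the replicate block the input counts were again 10 and 10, 22 and 13, and 24 and 13, depleted kinesins numbered 14, 18 and 15, IP/input ratios rising from L1C to L2C 2 in place of 3, and kinesins called outside that table were 7 higher and 4 lower. Low counts limit Kif5a, Kif1a, Kif1c, Kif3c and Kifc5b at MII, Kif21b and Kif26a at L2C, Kif21a in the knockdown and the 4 untested kinesins.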
